A study of Mus musculus with 10 samples.

Results

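The genes described here are 46 genes of DNA replication, chosen by name from a list that was drawn up with earlier results of these data known, with no threshold on a measured value. They cover origin licensing, the replicative helicase and its activation, the fork polymerases and their accessory factors, nucleotide supply and chromatin assembly behind the fork. They were read out of tables of 46517 mouse genes, of which 13986 passed the filter on low counts and were tested. All 46 replication genes passed it. The 10 RNA-seq libraries came from 5 allograft models of malignant peripheral nerve sheath tumour (MPNST), a soft-tissue cancer of nerves with Schwann cell features, lettered A to E. From each model, GFP+ and GFP- tumour cells were sorted, with 1 library per population and model. The series' title describes these as tumour cells with and without expression of a transgene called CGD. Wild-type cells and dead cells had been gated out in both populations. Neither the labels nor the design text give the promoter that drives the transgene, the tumours' genotype, or the strain, sex and age of the hosts. Nor do they say whether a model stands for 1 animal, so p-values measure the spread between these samples only.

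In G1 the origin recognition complex, Cdc6 and Cdt1 load the ring-shaped MCM2-7 helicase onto DNA, which licenses an origin. At the start of S phase the kinase Cdc7-Dbf4 and cyclin-dependent kinases let Cdc45 and GINS join the ring and switch it on, and polymerases then copy the unwound strands around the sliding clamp PCNA. Many of these genes are transcribed in bursts at the G1-to-S transition under E2F factors, so their RNA is widely read as a mark of dividing cells.

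The start regions of the genes were first compared by sequence, because E2F words are what this gene class is known for. RefSeq start regions of 300 bases (build GRCm38.p6), 250 before and 50 after the start, were at hand for 38 of the 46 genes. An E2F word, here TTTCCCGC, TTTCGCGC, TTTGCCGC or TTTGGCGC on either strand, stood in 15 of the 38 (39.5%). It stood in 2.60% of the start regions of all 27025 genes with an entry and in 4.76% of those of 10405 tested genes. Words may overlap each other. The CCAAT word was in 23 of the 38 (60.5%) against 43.0% of the tested genes. The CHR word TTTGAA, known from late cell-cycle promoters, was in 6 (15.8%) against 14.1%. In 10 genes an E2F word lay before the start. The 250 bases before the start are shown for the 3 of these 10 in which they touch no exon of GENCODE vM21. They hold 1 word (Pola1), a pair that overlaps (Mcm5), and an overlapping pair with 1 more word further on (Mcm6). Capitals mark the E2F words, and each run reads 5′ to 3′ on the gene's strand. The Mcm5 run is chr8:75109259-75109508 on the plus strand, with its first word 153 bases before the start. The Mcm6 run is chr1:128359706-128359955 on the minus strand, with its first word 110 bases before the start. The Pola1 run is chrX:93632156-93632405 on the minus strand, with its word 138 bases before the start.
Mcm5: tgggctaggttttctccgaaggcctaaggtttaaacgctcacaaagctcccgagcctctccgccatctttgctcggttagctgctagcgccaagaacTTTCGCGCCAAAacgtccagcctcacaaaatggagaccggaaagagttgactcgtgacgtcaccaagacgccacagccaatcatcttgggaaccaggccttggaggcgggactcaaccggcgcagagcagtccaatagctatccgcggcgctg
Mcm6: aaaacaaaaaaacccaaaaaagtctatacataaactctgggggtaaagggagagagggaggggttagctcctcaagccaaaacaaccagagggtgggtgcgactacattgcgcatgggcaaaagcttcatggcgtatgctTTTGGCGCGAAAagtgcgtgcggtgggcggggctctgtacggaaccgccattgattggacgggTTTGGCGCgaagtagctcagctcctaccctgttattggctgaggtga
Pola1: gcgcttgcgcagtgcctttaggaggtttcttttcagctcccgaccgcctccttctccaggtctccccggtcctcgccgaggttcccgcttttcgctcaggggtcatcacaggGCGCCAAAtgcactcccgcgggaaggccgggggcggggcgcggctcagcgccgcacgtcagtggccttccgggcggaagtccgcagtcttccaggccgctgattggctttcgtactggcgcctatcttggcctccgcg
These are letter matches, and whether a factor binds there was not measured. The 15 genes with a word had a median log2 difference between GFP+ and GFP- cells of 0.37, and the 23 without one of 0.29.

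None of the 46 genes passed the test between GFP+ and GFP- cells, and neither did any other gene. The paired edgeR quasi-likelihood test, with Benjamini-Hochberg adjustment over all tested genes, called 0 of 13986 genes (0%), and the smallest adjusted p among the replication genes was 0.417. At an unadjusted p under 0.05 it found 1257 genes, 769 of them higher in GFP+ cells (5.5% of all tested genes). Of the replication genes, 12 (26.1%) were on the higher side of that limit and 0 on the lower: Cdc45, Gins3, Mcm10, Dbf4, Cdc6, Rfc5, Pola2, Pold1, Pole, Rrm2, Chaf1a and Uhrf1. DESeq2, run on the same counts, called 195 genes (1.39%) and 0 of the 46. The fitted log2 difference was above 0 for 43 of the 46 genes (93.5%, or 45 of 46 when libraries were scaled by their totals alone), where 49.3% of all tested genes were above 0. The median difference of the 46 was 0.32 on the log2 scale, and that of all tested genes was -0.0028. In sorted bulk RNA, fewer cells of a type and less RNA per cell cannot be told apart. The count of 12 rested on the pairing and on single models. It was 2 without the replicate block, 5 without model B, 5 without model D and 23 without model A, while the median was 0.16 without model B.

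The differences were uneven between the tumour models. The mean over the 46 genes of the log2 difference, GFP+ minus GFP-, was -0.15 in pair A, 0.93 in pair B, 0.20 in pair C, 0.55 in pair D and 0.10 in pair E, which gives 0.33 ± 0.42 (SD, n = 5 pairs). The GFP+ library had the higher level for all 46 genes in pair B, for 43 in pair D, 42 in pair C, 30 in pair E and 9 in pair A. Of all 13986 tested genes, 7350 were higher in pair B, 7044 in D, 6795 in C, 7012 in E and 6934 in A. A level more than 1.5-fold higher in GFP+ cells was seen for 34 of the 46 genes in pair B (73.9%, against 11.8% of all tested genes) and for 19 in pair D (41.3%, against 9.04%). It was seen for 1 gene in pair C (Rrm2, against 6.54%), for 1 in pair E (Gins3, against 11.3%) and for 0 in pair A (against 10.3%). Each pair is 1 library against 1, with no replicate of its own. Only 9 genes were higher in GFP+ cells in all 5 pairs (19.6%, against 5.11% of all tested genes): Cdc45, Gins1, Gins3, Mcm10, Cdc6, Prim1, Pold1, Fen1 and Chaf1a.

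**Figure D1:**
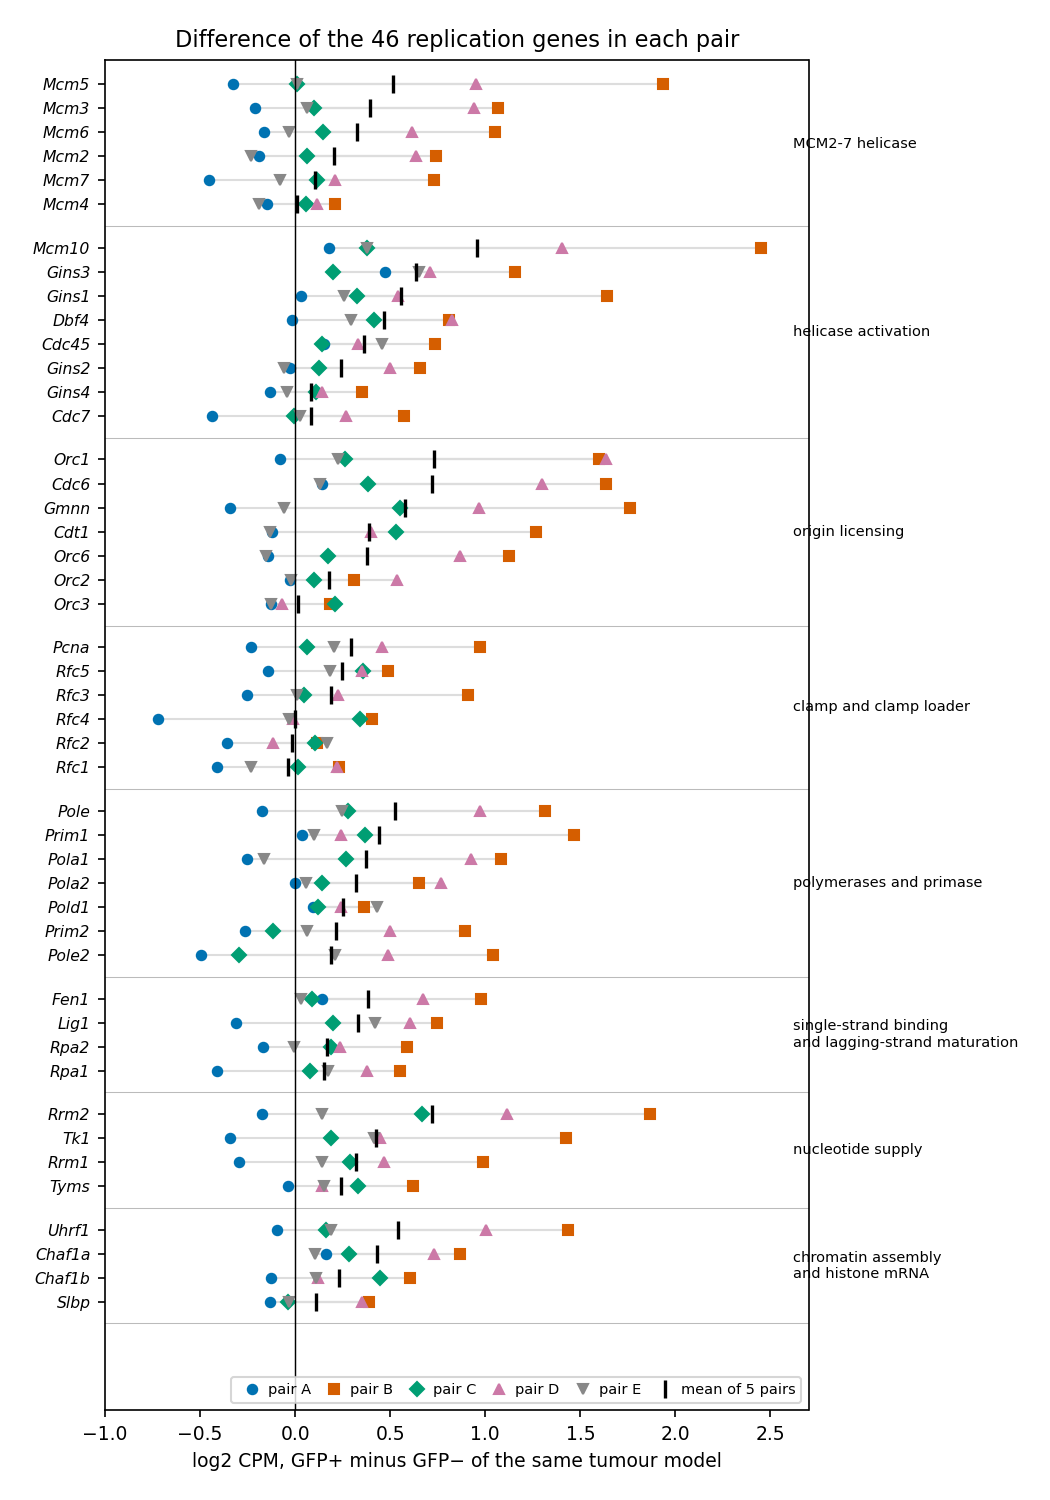
Difference in log2 CPM (GFP+ minus GFP- of the same tumour model, horizontal axis) for each of the 46 genes, grouped by role, with 1 symbol per pair and a bar at the mean of 5 pairs. Pair B lies to the right of 0 for all 46 genes, and pair A lies to the left of 0 for 37.

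The summed level of the 46 genes was then set side by side for the 10 libraries. It was 1878, 2010, 1420, 1910 and 2342 CPM (gene reads scaled to a common library size) in GFP+ cells of models A to E, and 2152, 1174, 1275, 1367 and 2256 CPM in GFP- cells. The GFP- cells of B, C and D and the GFP+ cells of C formed the low end, and both populations of A and E and the GFP+ cells of B and D the high end, so the populations overlapped. The GFP- library of B held the lowest level of 24 genes, that of C the lowest of 16 and that of D the lowest of 3. Model E held the highest level of 31 genes, 20 of them in its GFP+ and 11 in its GFP- library. For 0 of the 46 genes did every GFP+ library lie above every GFP- library, which held for 0.0858% of all tested genes.

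**Figure D2:**
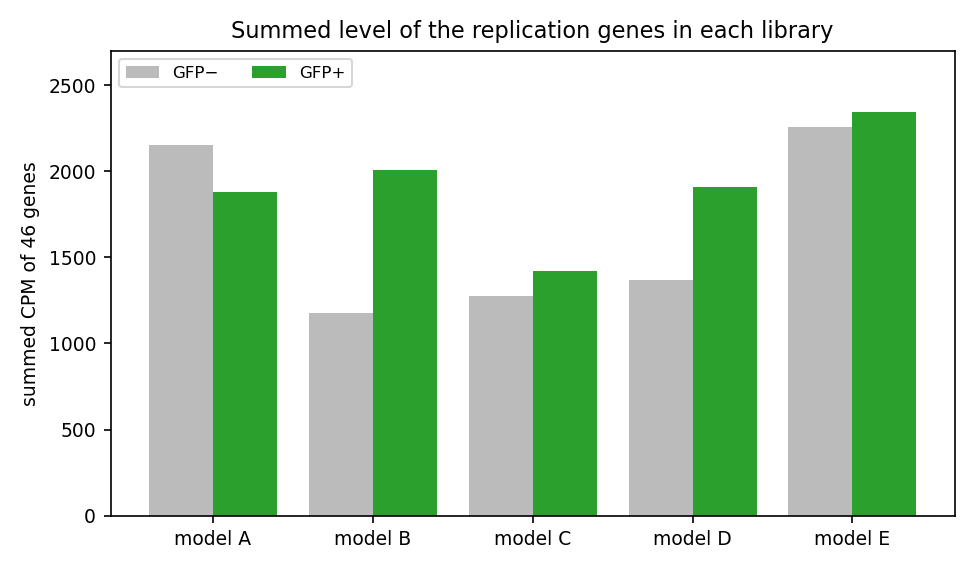
Summed level of the 46 genes in CPM (vertical axis, from 0) in the GFP- (grey) and GFP+ (green) library of each tumour model. The GFP+ bar is higher in models B, C, D and E and lower in model A, where it is 1878 against 2152 CPM.

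The MCM2-7 ring, made of 6 related ATPases that encircle DNA, had 6 of 6 genes with a difference above 0, a median of 0.26 and 0 genes at an unadjusted p under 0.05 by edgeR. Mcm5, the gene with the largest difference of the ring, was at 48.2, 35.8, 37.8, 45.5 and 64.2 CPM in GFP+ cells of models A to E. In GFP- cells it was at 60.4, 9.31, 37.6, 23.5 and 63.8 CPM. The GFP- cells of B stood alone at the bottom, models C and E had nearly equal levels in both populations, and the populations overlapped. The fitted log2 difference of Mcm5 was 0.48 ± 0.31 (SE, n = 5 pairs, edgeR adjusted p = 0.690). Mcm3, with the smallest p of the ring, was at 68.5, 69.7, 37.8, 66.7 and 74.9 CPM in GFP+ cells and at 79.5, 33.2, 35.2, 34.7 and 71.8 CPM in GFP- cells. Its low libraries were both of model C and the GFP- cells of B and D, and its difference was 0.39 ± 0.20 (SE, edgeR adjusted p = 0.618). Mcm4 was at 98.6, 65.8, 80.4, 71.7 and 108 CPM in GFP+ cells and at 109, 57.0, 77.2, 66.2 and 123 CPM in GFP- cells. Both populations of a model lay close together for Mcm4 while the models differed, and its log2 difference of 0.0081 ± 0.083 (SE) changed sign when model B, C or D was left out. Mcm6, Mcm2 and Mcm7 had differences of 0.32, 0.20 and 0.10, that of Mcm7 turning to -0.054 without model B.

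The subunits of the ring assemble in equal numbers, and their RNA levels per exon length were not equal. Per kilobase of summed exon length, Mcm6 was highest at 24.9 ± 8.30 CPM (SD, n = 10 libraries) and Mcm5 lowest at 10.7 ± 4.45 CPM. Mcm2 at 10.8 ± 2.34 CPM per kilobase differed from Mcm5 by less than their spread. The same held at the top, where Mcm4 at 23.9 ± 6.23 and Mcm7 at 21.3 ± 6.84 CPM per kilobase lay near Mcm6. These SDs span all models and both populations, and the subunits were not compared within each library. With the length of the principal transcript, which was chosen as an alternative after the values were seen, Mcm6 was again highest and Mcm5 lowest, at 40.0 and 12.6 CPM per kilobase. The order of the others moved with the length used.

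The genes that activate the loaded ring held 4 of the 12 with an unadjusted p under 0.05, and 8 of 8 had a difference above 0 (median 0.41). Mcm10 (chromosome 2, 4989714 to 5012791, mm10), which is needed for the assembled helicase to start unwinding, had the largest difference of the 46 genes. It was at 18.6, 21.9, 8.49, 17.8 and 23.2 CPM in GFP+ cells of models A to E and at 16.4, 3.92, 6.51, 6.67 and 17.8 CPM in GFP- cells. The GFP+ library was the higher one in 5 of 5 pairs, with the widest gaps in B and D, but the GFP+ cells of C lay below the GFP- cells of A and E. Its log2 difference was 0.94 ± 0.34 (SE, n = 5 pairs, edgeR adjusted p = 0.479). Dbf4, the regulatory subunit that turns on Cdc7, was at 46.2, 45.2, 26.9, 48.4 and 51.6 CPM in GFP+ cells and at 46.7, 25.7, 20.2, 27.2 and 42.1 CPM in GFP- cells. Its levels in model A were nearly equal, 4 of 5 pairs were higher in GFP+ cells, and its difference was 0.47 ± 0.14 (SE, edgeR adjusted p = 0.417). Cdc7, the kinase itself, was at 37.3, 43.2, 38.2, 43.3 and 38.2 CPM in GFP+ cells and at 50.6, 29.0, 38.3, 36.0 and 37.6 CPM in GFP- cells. As for Dbf4, its pair differences were largest in B and D and lowest in A. The fitted difference of 0.084 ± 0.14 (SE, edgeR adjusted p = 0.908) turned to -0.038 without model B, and whether it differs from that of Dbf4 was not tested.

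Cdc45 and GINS join the MCM ring as parts of the active helicase. Cdc45 was higher in GFP+ cells in 5 of 5 pairs, by 0.14 to 0.74 on the log2 scale, with a fitted difference of 0.36 ± 0.12 (SE, edgeR adjusted p = 0.456). The products of the GINS genes form a complex of one copy each. Gins3 was at 5.39, 4.03, 3.41, 5.26 and 4.92 CPM in GFP+ cells and at 3.85, 1.75, 2.95, 3.18 and 3.10 CPM in GFP- cells. It was higher in GFP+ cells in 5 of 5 pairs, with only the GFP+ library of C below a GFP- library, that of A. Its difference was 0.65 ± 0.19 (SE, edgeR adjusted p = 0.417), and those of Gins1, Gins2 and Gins4 were 0.56 ± 0.26, 0.24 ± 0.15 and 0.084 ± 0.099, with no test between the 4 genes. Per kilobase of summed exon length Gins4 was highest at 18.3 ± 3.77 CPM (SD, n = 10) and Gins3 lowest at 1.40 ± 0.42 CPM, an order of these extremes that also held with the principal transcript.

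Of the licensing genes, 7 of 7 had a difference above 0 (median 0.38) and 1 had an unadjusted p under 0.05. Cdc6 (chromosome 11, 98907801 to 98923940), the ATPase that brings the helicase to the origin recognition complex, was at 15.3, 15.3, 7.95, 16.4 and 18.6 CPM in GFP+ cells and at 13.9, 4.84, 6.07, 6.60 and 17.0 CPM in GFP- cells. It was higher in GFP+ cells in 5 of 5 pairs, with small gaps in A and E, and its difference was 0.71 ± 0.26 (SE, edgeR adjusted p = 0.479). Subunits of the origin recognition complex are given next, with no test between them. Orc1 (chromosome 4, 108579423 to 108614833), the largest ATPase subunit of the complex, was at 4.46, 5.79, 4.76, 6.54 and 8.49 CPM in GFP+ cells and at 4.72, 1.84, 3.95, 2.03 and 7.25 CPM in GFP- cells. Only B and D showed wide gaps, and its difference was 0.72 ± 0.31 (SE, edgeR adjusted p = 0.564). Orc3, a core subunit, was at 43.3, 49.0, 45.5, 38.0 and 52.4 CPM in GFP+ cells and at 47.2, 43.1, 39.3, 39.9 and 57.2 CPM in GFP- cells. Those levels overlapped throughout, and its difference of 0.014 ± 0.086 (SE) turned to -0.028 without model B. Orc6 and Orc2 had differences of 0.37 and 0.18. Cdt1, the loader's partner, had 0.38, but its span overlaps that of the gene Gm20388 on the same strand, so its count may be low. In all, 9 of the 46 genes have a span that overlaps another gene or small RNA on their strand: Cdt1, Mcm7, Orc2, Rfc1, Pola1, Prim2, Pold1, Pole and Rpa1. Whether exons overlap was not examined. Gmnn, the inhibitor of Cdt1 that prevents a second licensing, had 0.56 ± 0.31 (SE), with 8.93 CPM in the GFP- cells of A and 2.54 CPM in those of B.

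**Figure D3:**
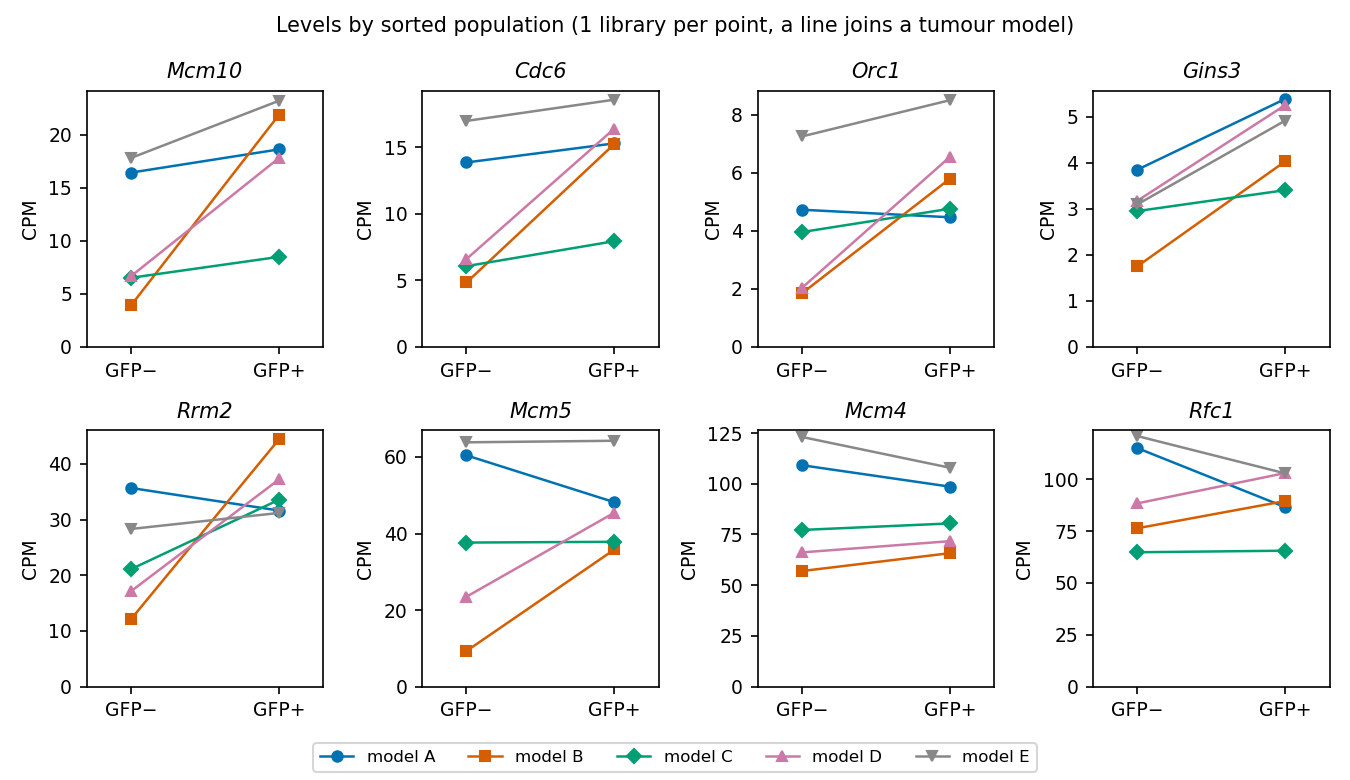
Level in CPM (vertical axis, from 0) of 8 genes in the GFP- and GFP+ library of each tumour model, with a line joining the libraries of a model. The lines of models B and D climb in all panels, and for Mcm4 and Rfc1 the lines of models A and E go down.

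The sliding clamp and its loader had the smallest median difference of the 8 role groups, 0.09, with 3 of 6 genes above 0 and 3 below. Pcna, the ring that tethers polymerases to DNA, was at 44.9, 61.5, 42.9, 56.1 and 71.5 CPM in GFP+ cells and at 52.8, 31.3, 41.1, 40.9 and 62.1 CPM in GFP- cells. Its difference was 0.29 ± 0.16 (SE, edgeR adjusted p = 0.641), and 2 named pseudogenes (Pcna-ps1 and Pcna-ps2) make its count uncertain. Among the 5 subunits of replication factor C, which opens the clamp and closes it around DNA, Rfc5 had the smallest p. It was at 40.5, 42.5, 23.6, 38.1 and 57.9 CPM in GFP+ cells and at 44.7, 30.2, 18.4, 29.9 and 50.9 CPM in GFP- cells. Both libraries of E were high and both of C low for Rfc5, and its difference was 0.25 ± 0.11 (SE, edgeR adjusted p = 0.555). Rfc1, the large subunit, was at 86.5, 89.5, 65.6, 103 and 103 CPM in GFP+ cells and at 115, 76.4, 64.8, 88.4 and 121 CPM in GFP- cells, a difference of -0.036 ± 0.11 (SE). For Rfc2, GFP+ cells were at 57.0, 63.5, 32.7, 48.0 and 75.1 CPM and GFP- cells at 73.3, 58.6, 30.5, 52.1 and 66.8 CPM, a difference of -0.018 ± 0.096 (SE). For Rfc4, GFP+ cells were at 7.40, 6.62, 5.46, 6.81 and 12.6 CPM and GFP- cells at 12.3, 4.98, 4.29, 6.86 and 12.9 CPM, a difference of -0.0093 ± 0.19 (SE). In each of these 3 genes the GFP- cells of A lay above the GFP+ cells of A, and without model A all 3 differences were above 0. Scaling by library totals also put Rfc2 and Rfc4 above 0. Rfc3 had a difference of 0.19.

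All 7 polymerase and primase genes had a difference above 0 (median 0.32), 3 of them at an unadjusted p under 0.05. Pold1, the catalytic subunit of the polymerase that copies the lagging strand, was at 52.9, 45.6, 31.4, 38.1 and 49.4 CPM in GFP+ cells and at 49.6, 35.4, 28.8, 32.3 and 36.7 CPM in GFP- cells. Each GFP+ library was above its partner, by 0.092 (A) to 0.43 (E) on the log2 scale. The fitted difference was 0.25 ± 0.083 (SE, edgeR adjusted p = 0.461), with the smallest standard error of the 12 genes. Pole, the catalytic subunit of the leading-strand polymerase, was at 55.7, 64.6, 25.6, 60.5 and 68.6 CPM in GFP+ cells and at 62.8, 26.0, 21.1, 30.8 and 57.8 CPM in GFP- cells. Its gaps were wide in B and D and its GFP+ library of C was low, and its difference was 0.53 ± 0.21 (SE, edgeR adjusted p = 0.524). Pole2, a second subunit of the same enzyme, was at 5.82, 10.1, 4.16, 8.58 and 8.44 CPM in GFP+ cells and at 8.26, 4.84, 5.12, 6.10 and 7.30 CPM in GFP- cells. It went opposite ways in A and C on one side and B, D and E on the other, and its difference of 0.20 ± 0.24 (SE) turned to -0.021 without model B.

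Polymerase alpha and primase lay the short primers from which both strands start. Its genes Pola1, Pola2 and Prim2 had differences of 0.37, 0.32 and 0.21, that of Pola2 with an edgeR p of 0.048 (adjusted 0.552). Prim1, the catalytic primase subunit, differed mainly by tumour model. It was at 23.5, 17.4, 5.78, 17.9 and 44.0 CPM in GFP+ cells of models A to E and at 22.9, 6.22, 4.45, 15.1 and 41.1 CPM in GFP- cells. Both populations of E were the highest and both of C were low, and the model took 90.0% of the sum of squares of its log2 levels. The difference of 0.43 ± 0.21 (SE, edgeR adjusted p = 0.596) was above 0 in 5 of 5 pairs, with 1.47 in pair B and at most 0.37 in the others.

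Rpa1 and Rpa2, subunits of the protein that coats single-stranded DNA, and Fen1 and Lig1, which trim and seal Okazaki fragments, had 4 of 4 differences above 0 and a median of 0.25. None had an unadjusted p under 0.05 by edgeR. Fen1 was at 19.7, 19.96, 14.8, 18.7 and 29.3 CPM in GFP+ cells and at 17.9, 10.1, 13.9, 11.7 and 28.7 CPM in GFP- cells. It was higher in GFP+ cells in 5 of 5 pairs, by little in C and E, and its difference was 0.38 ± 0.16 (SE, edgeR adjusted p = 0.558). Rpa1 was at 64.4, 69.3, 46.8, 72.8 and 69.6 CPM in GFP+ cells and at 85.5, 47.3, 44.3, 55.9 and 61.8 CPM in GFP- cells. The GFP- cells of A held its highest level, and its difference was 0.15 ± 0.13 (SE, edgeR adjusted p = 0.780). Lig1 and Rpa2 had differences of 0.33 and 0.17.

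The nucleotide supply genes had 4 of 4 differences above 0 and a median of 0.37. Rrm2 (chromosome 12, 24708241 to 24714146), the subunit of ribonucleotide reductase whose amount follows S phase, was at 31.6, 44.4, 33.6, 37.2 and 31.2 CPM in GFP+ cells. In GFP- cells it was at 35.7, 12.1, 21.1, 17.1 and 28.3 CPM. The GFP+ libraries lay close together, and 4 of the 5 GFP- libraries lay below all of them, the exception being model A. Its difference was 0.71 ± 0.28 (SE, edgeR adjusted p = 0.520). Rrm1, the large subunit of the same enzyme, had a difference of 0.32 ± 0.17 (SE). Tyms, which makes thymidylate, was at 35.3, 33.2, 22.6, 28.5 and 42.5 CPM in GFP+ cells and at 36.2, 21.6, 18.0, 25.8 and 38.2 CPM in GFP- cells. For Tyms the order of the models was much the same in both populations, and its difference was 0.24 ± 0.11 (SE, edgeR adjusted p = 0.576). Tk1, the thymidine kinase of the salvage route, had a difference of 0.42.

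Behind the fork, Chaf1a and Chaf1b encode subunits of the chromatin assembly factor that deposits histones, Uhrf1 reads half-methylated DNA for the maintenance methyltransferase, and Slbp binds the end of histone messenger RNA. All 4 had differences above 0 (median 0.33), and Chaf1a and Uhrf1 had an unadjusted p under 0.05. Chaf1a was at 51.5, 48.8, 29.4, 47.9 and 54.7 CPM in GFP+ cells and at 45.9, 26.7, 24.1, 28.8 and 50.9 CPM in GFP- cells. It was higher in GFP+ cells in 5 of 5 pairs, and its difference was 0.43 ± 0.13 (SE, edgeR adjusted p = 0.438). Uhrf1 was at 64.7, 69.5, 29.7, 60.3 and 62.8 CPM in GFP+ cells and at 68.99, 25.6, 26.5, 30.0 and 55.1 CPM in GFP- cells. The GFP- cells of B and D and both populations of C formed a low group, and its difference was 0.54 ± 0.23 (SE, edgeR adjusted p = 0.552). Slbp was at 56.0, 62.0, 36.5, 58.5 and 62.0 CPM in GFP+ cells and at 61.3, 47.3, 37.5, 45.7 and 63.5 CPM in GFP- cells. Only B and D were higher in GFP+ cells for Slbp, and its difference was 0.11 ± 0.10 (SE). Chaf1b had a difference of 0.23.

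The models differed more from each other in the GFP- than in the GFP+ population. The SD of log2 CPM over 5 libraries was larger in GFP- cells for 42 of the 46 genes (91.3%), as it was for 63.3% of all tested genes. Its median over the 46 genes was 0.34 in GFP+ and 0.52 in GFP- cells, and over all tested genes 0.38 and 0.43. The GFP- spread includes the low libraries of B, C and D. Those of B and D belong to the pairs with the largest mean differences, 0.93 and 0.55. In pair C the GFP+ library was low as well, and the mean difference was 0.20. The SD was not recomputed with a model left out. Mcm5 had an SD of 0.33 in GFP+ and 1.14 in GFP- cells, Gmnn of 0.24 and 0.85, and Orc1 of 0.37 and 0.81. The 4 exceptions were Rfc3, Pold1, Pole2 and Slbp. Over all 10 libraries the tumour model took a median of 63.6% of the sum of squares of a replication gene's log2 level, the population 12.8% and the remainder 19.1%. Over all tested genes these medians were 82.4%, 2.34% and 12.4%. The shares are not adjusted for the number of groups. There are more models than populations, so noise alone gives the model a larger share than the population. Among the 46 the share of the model ran from 11.6% for Rrm2 to 95.3% for Mcm4. The population took its largest share in Gins3, with 51.2%.

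**Figure D4:**
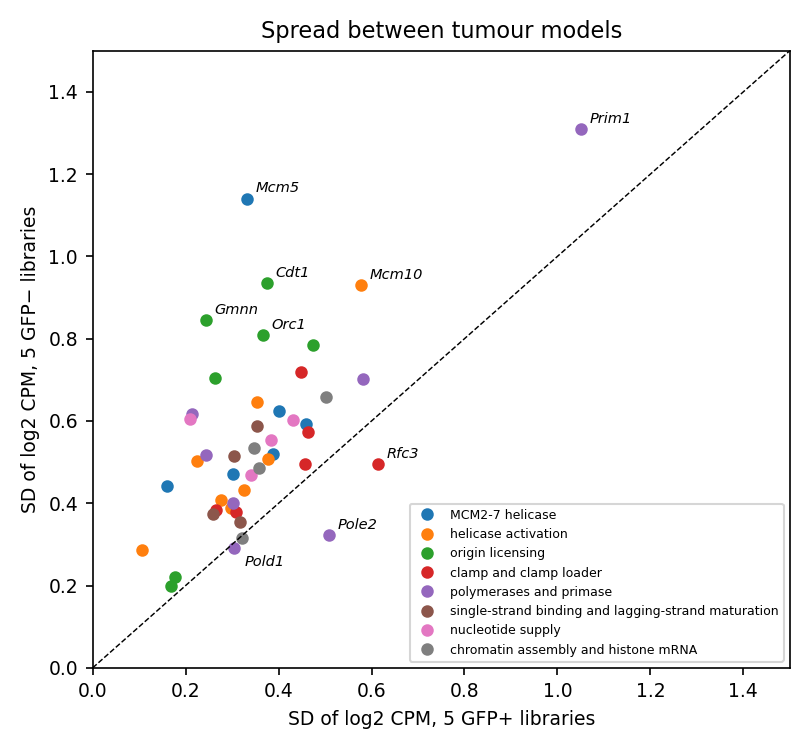
SD of log2 CPM over the 5 GFP- libraries (vertical axis) against the SD over the 5 GFP+ libraries (horizontal axis), with 1 point per gene coloured by role and a dashed line of equality. Of the 46 points, 42 lie above the line, Mcm5 far above it at 1.14 against 0.33.

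Other genes of the same pathway, from lists that do not share members with the 46, were read from the same fit, in which no gene passed after adjustment. Of all 13986 tested genes 49.3% were above 0. At an unadjusted edgeR p under 0.05, 769 (5.5%) were on the higher side and 488 on the lower. Of 41 other replication genes, 36 had a difference above 0 (median 0.26), with 10 at an unadjusted edgeR p under 0.05 on the higher side and 1 on the lower. Their smallest p values were those of Recql4, a helicase that takes part in origin firing (0.75 ± 0.20, SE, adjusted p = 0.379), and Clspn, the mediator of the fork checkpoint (0.85 ± 0.24, adjusted p = 0.393). Of 14 replication checkpoint genes 13 were above 0 (median 0.37, 3 at an unadjusted p under 0.05), led by the repair gene Brca1 (0.89 ± 0.28, adjusted p = 0.439) and the kinase Wee1 (0.47 ± 0.15, adjusted p = 0.443). Of 24 regulators of the G1-to-S step 20 were above 0 (median 0.19, 4 at an unadjusted p under 0.05), led by the repressor E2f8 (0.78 ± 0.15, adjusted p = 0.310) and cyclin A2, Ccna2 (0.75 ± 0.21, adjusted p = 0.393). Of 22 quiescence and inhibitor genes 7 were above 0 (median -0.068). At an unadjusted edgeR p under 0.05, 2 of them were on the higher side and 4 on the lower. The 2 with the smallest p went opposite ways, the CDK inhibitor Cdkn1b with -0.32 ± 0.075 (adjusted p = 0.363) and the CDK inhibitor Cdkn1a with 0.50 ± 0.12 (adjusted p = 0.363). All 27 mitosis genes were above 0 (median 0.71, 22 at an unadjusted p under 0.05), led by the spindle bundler Prc1 (1.15 ± 0.20, adjusted p = 0.261) and the kinase Aurkb (1.18 ± 0.28, adjusted p = 0.363).

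Pair by pair, the mitosis genes had the larger mean difference. It was 0.03, 1.72, 0.47, 1.21 and 0.50 in pairs A to E, against -0.15, 0.93, 0.20, 0.55 and 0.10 for the 46 replication genes. The order of the pairs B, D, C, E and A held for the replication genes, and in the mitosis genes C and E changed places. For the mitosis genes the population took a median of 38.0% of the sum of squares and the model 40.7%, where the replication genes had 12.8% and 63.6%. The difference between these lists was not tested.

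**Figure D5:**
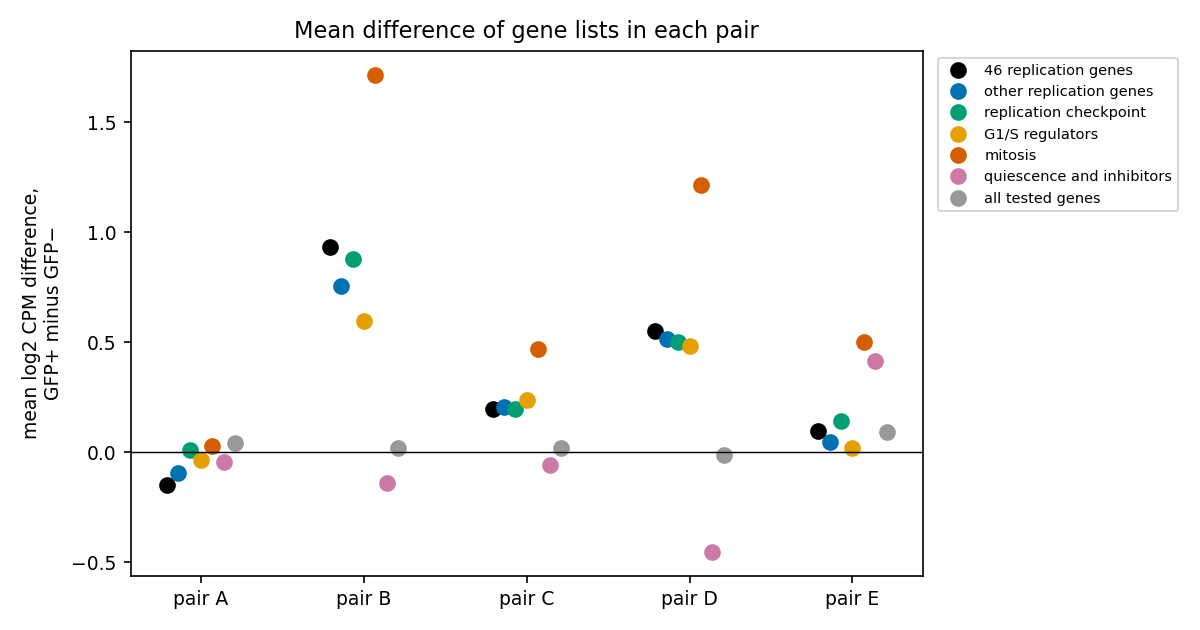
Mean log2 CPM difference (GFP+ minus GFP-, vertical axis) in each pair for the 46 replication genes, 5 other gene lists and all tested genes, with 1 point per list and pair. The mitosis point is the highest in pairs B, C, D and E, and in pair A the replication genes are the lowest list, at -0.15.

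Library totals were 15978673 to 22082207 reads in genes, and the replication genes held 32 (Orc1) to 3477 (Mcm6) reads per library. Lists of cell type markers were read beside these values. The fibroblast list (9 of 9 markers passed the filter, 8 lower in GFP+ cells) summed to 18696 to 33942 CPM in GFP+ and 19862 to 39902 CPM in GFP- libraries. It was higher in GFP+ cells in 1 of 5 pairs. The collagen gene Col3a1 had its highest level. Whether the sorted tumour cells themselves expressed the genes of this list was not tested. The immune list (13 of 14 markers with a read) summed to 9.68 to 19.3 CPM and 8.96 to 104 CPM, with Cd3g at 0 in all libraries and Ptprc at most at 0.46 CPM. The upper end was the GFP- library of B, where Mpeg1 was at 94.1 CPM, and this is also the library with the lowest level of 24 replication genes. Without Mpeg1 the immune sum of that library was 9.86 CPM, within the 8.02 to 22.9 CPM of the other libraries. The endothelial list summed to 3.92 to 13.4 CPM and 3.82 to 13.1 CPM, the pericyte and smooth muscle list to 46.9 to 243 CPM and 38.1 to 259 CPM, and the red cell list to at most 1.21 CPM. Of the Schwann and MPNST markers 11 of 12 tested were higher in GFP+ cells, while S100b was at most at 2.84 CPM in any library. Sox10, from the same list, was at 16.6, 52.3 and 110 CPM in GFP+ cells of B, C and D. Their GFP- cells were at 1.66, 7.74 and 3.75 CPM. In both populations of A and E Sox10 was at or below 0.45 CPM. Pairs B, C and D also had the largest mean differences of the replication genes. Pair C (0.20) was close to pair E (0.10) there, against an SD over pairs of 0.42. In the mitosis genes pair E (0.50) was above pair C (0.47). The part of these markers in the replication gene differences was not tested.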

How the data were processed

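RNA of sorted GFP+ and GFP- tumour cells from 5 MPNST allograft models was sequenced, 1 library per population and model, after collagenase dissociation and a gate against wild-type and dead cells, per the labels' protocols. STAR 2.4.2.8 and the build mm10 are named per the submitters' processing notes. The annotation, kit and strand setting were not stated in the sources at hand. The authors deposited raw counts of reads per gene without normalization, once without regard to strand and once for each strand. The count of the second strand setting was used, since it took 96.9% to 97.1% of stranded gene reads. The 4 summary lines (21.3% to 24.3% of reads) were left out, among them reads with several positions (5.99% to 9.74%), which lowers the count of any gene with a near-identical copy. GENCODE vM21 gave names, exon lengths and coordinates for 46005 identifiers and none for 512. No 2 libraries were identical.

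Genes were tested with edgeR 4.0.16 (R 4.3.3) by quasi-likelihood with TMM scaling, filterByExpr and the tumour model as a block, since the design text states a paired comparison. The test was two-sided and Benjamini-Hochberg adjusted over 13986 genes at 0.05, and standard errors came from the F statistic. The letters pair libraries of the same tumour model, and deviations from population means correlated at 0.628 to 0.867 within pairs. CPM used TMM library sizes. Pair differences and sums of squares used log2 CPM (prior count 2). Levels between genes were compared per kilobase of exon, and the sets under the last heading also in plain CPM. The steps were tested on simulated data in which a set change had the same size in every pair. Changes set to differ between models were not simulated.

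The 46 genes, the lists and the rules were chosen with earlier results of these data known. Values in every library were given, per role, for the gene with the smallest p, the largest and the smallest difference, and for genes against their role's direction, and 2 genes by smallest p were named from each pathway list. Gins3, Prim1 and 2 libraries of Gmnn were added after their values were seen. Alternatives were DESeq2 1.42.0, limma 3.58.1 voom with quality weights, a robust fit, other scalings, filters and prior counts, unstranded counts, no replicate block and leaving out each model.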

Additional observations from a re-analysis of the deposited data

Results flagged for a closer look

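Each population's 5 log2 CPM values and the 5 pair differences of the 46 genes were searched for a value far from the other 4 (Dixon's limit for 5 values, 0.71). Of 138 such groups 12 held one, and chance gives about 1 in 20. In 10 of the 12 the low value was the GFP+ library of model C, so these are 1 library seen 10 times. It was at 6.02 for Mcm2 (the others from 6.35), at 5.24 for Mcm3 (from 6.06), at 3.10 for Mcm10 (from 4.16), at 4.75 for Dbf4 (from 5.50) and at 3.01 for Cdc6 (from 3.94). It was at 4.69 for Pole (from 5.80), at 5.55 for Rpa1 (from 6.01), at 4.88 for Chaf1a (from 5.59), at 4.90 for Uhrf1 (from 5.92) and at 5.19 for Slbp (from 5.81). The origin subunit gene Orc2 was low in the GFP+ library of model A, at 5.07, where the others lay between 5.39 and 5.48. The primase gene Prim1 had a log2 difference of 1.47 in pair B, where the others lay between 0.038 and 0.37. Without model C, 10 of the 46 genes were at an unadjusted edgeR p under 0.05, against 12 with it.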

How the results depend on the processing

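The number of genes called was 0 in the edgeR fit, 47 without the filter on low counts and 195 with DESeq2. It was 0 in the other settings, which include each fit that left out a model. Of the replication genes, 12 were at an unadjusted p under 0.05, 2 without the replicate block, and 5 (without model B or D) to 23 (without model A) when 1 model was left out. Genes above 0 ranged from 38 (without model B) to 46 (without model A), and their median log2 difference from 0.158 to 0.415. The median share of the tumour model ranged from 43.8% (without model C) to 80.4% (without model B). Over 14 settings, 626 of 644 log2 differences of single genes kept their sign, and 38 genes kept it throughout. The other 18 were in 8 genes. Mcm4 was at -0.0275 without the replicate block, -0.0078 without the filter, and at -0.0408 to 0.0435 when 1 model was left out. Orc3 was at -0.0025 without the filter and at -0.0372 to 0.0426 with 1 model left out. Rfc2 was at 0.0136 with library totals, 0.0113 with voom and -0.0808 to 0.0621 with 1 model left out, and Rfc4 was at 0.0219 with library totals and -0.114 to 0.168. With 1 model left out, Rfc1 was at -0.102 to 0.0522, Mcm7 at -0.0539 to 0.236, Cdc7 at -0.0378 to 0.209 and Pole2 at -0.0207 to 0.369. The cause was not tested. The smallest adjusted p of a replication gene in any setting was 0.139. The ratio of the highest to the lowest MCM subunit per kilobase was 2.33 with the summed exon length and 3.17 with the principal transcript. Genes with few reads, such as Gins3, Gins1 and Orc1, have wider counting error.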

Other observations

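The 10 replication genes with the largest log2 differences (0.48 to 0.94) had a median of 13.2 CPM (3.78 to 49.3), or 3.55 CPM per kilobase of exon. The 10 with the smallest (-0.036 to 0.15) had a median of 54.4 CPM (8.02 to 94.4), or 10.2 CPM per kilobase. The ranges of the sets in plain CPM overlapped. Both sets were chosen after their values were seen and carry no test.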
